A study of Mus musculus with 41 samples.

Results

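Callus from 5 old mice (25 months) was compared with callus from 5 young mice (5 months) 10 days after tibial fracture, across all measured genes. These were 10 of the 41 arrays of a study of fracture healing in both ages before fracture and 5, 10 and 20 days after it. Members were the 10 arrays labelled day 10, 5 of each age, and all 19938 genes to which a probe set could be assigned entered the test. The mice of these 10 arrays came from the NIH aged rodent colony and had bilateral closed tibial fractures stabilised with an intramedullary pin. Every array held RNA of a different mouse. The labels give no strain, sex or genotype, and they say that extracts were either whole bone or callus alone without saying which array held which. The labels give the same injury, pin and pain relief for both ages, and differences in what they do not give cannot be told apart from age. The precision of each value below is limited by the 5 arrays in each group.

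A pinned but mobile tibial fracture heals largely through a cartilage template. Chondrocytes first lay down a soft callus rich in type II collagen and aggrecan, then enlarge, secrete type X collagen and are replaced by bone, a sequence known as endochondral ossification. Blood vessels, osteoclasts, macrophages and bone marrow cells invade the callus as the cartilage is removed, so a whole callus holds cartilage, new bone, fibrous tissue, marrow and often adjoining muscle. The labelled tissue was checked against a defining cartilage gene: aggrecan (Acan) was at 11.47 ± 0.48 in old and 10.29 ± 0.51 in young callus at day 10, against 4.95 ± 0.12 in old and 5.17 ± 0.41 in young bone at day 0 (log2 normalized intensity, mean ± SD, n = 5, and n = 6 for old bone).

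Of the 19938 genes, 10 (0.0502%) passed the test between old and young callus, of which 6 (0.0301%) rose and 4 (0.0201%) fell in old callus. The genes that rose were the cartilage matrix genes Ucma and Matn1, the cartilage-secreted protein gene Mia, Scube1, Cnnm4 and Tmco3. The genes that fell were the mast cell protease gene Mcpt4, Pi16, Tmeff2 and Mgst1. The test was limma's moderated test in a fit of all 41 arrays, and a gene passed at a Benjamini-Hochberg adjusted p under 0.05. Changes are log2 differences, old minus young, ± SE. Each SE rests on the spread within all 8 groups of age and day, so it can lie above or below the spread at day 10. Which genes passed therefore depended in part on their spread on other days. Without adjustment 1543 genes (7.74%) had p under 0.05, of which 876 (4.39%) were higher and 667 (3.35%) lower in old callus. Over all genes the median change was 0.004 and 51.3% of genes were above 0. Groups did not overlap for 250 genes (1.25%) on the higher and 131 genes (0.657%) on the lower side. Mia, Scube1 and Tmeff2 fell outside the rule for named genes and were added after their values were seen, to complete the 10.

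One array of each age stood apart. On the first principal component of the 10 arrays (33.2% of variance) old replicate 1 scored −27.1 while the other old arrays scored 6.4 to 21.5 and the young arrays −19.3 to 15. On the second (19.4%) young replicate 1 scored −28.2 while the other young arrays scored −13.7 to 3.6. Without old replicate 1 the count of genes that passed was 49 (0.246%), 36 higher and 13 lower, and without both arrays it was 156 (0.782%), 48 higher and 108 lower. All 10 genes passed in both of these fits. Without old replicates 2, 3 or 4 the counts were 1, 2 and 4, all of them among the 10. Without young replicates 1, 2, 3 or 4 the counts were 11, 2, 4 and 18, of which 5, 0, 4 and 9 were among the 10. Over the 10 fits that leave out 1 array, Mcpt4 passed in 7, Ucma, Matn1, Tmco3, Tmeff2 and Mgst1 in 4 each, Pi16 in 3, Mia and Scube1 in 2 each and Cnnm4 in 1. By limma 0 genes passed without old replicate 5 or young replicate 5, with 1102 and 1142 at an unadjusted p under 0.05. When the 10 arrays were fitted alone 0 passed, where 2315 genes had an unadjusted p under 0.05 and the lowest adjusted p was 0.081. The sample names also carry numbers of 2 series whose meaning the labels do not give. Old replicates 2 and 3 and young replicates 1 and 2 have low numbers, and the remaining 3 old and 3 young arrays have high numbers. Age differences are therefore also given below within each series. The p values within a series rest on the spread of arrays of all days, and not only on the few arrays compared. Within the low-numbered arrays 3 genes (0.015%) passed, all higher in old callus (Ucma, Mia and Matn1), and within the high-numbered arrays 3 (0.015%) passed, all lower (Mcpt4, Tmeff2 and Mirlet7c-1). With the 10 arrays fitted alone and the series as a block 0 genes passed by limma, with 2536 (12.7%) at an unadjusted p under 0.05. With arrays weighted by their quality 788 (3.95%) passed.

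The promoters of 2 of the cartilage genes that rose, Ucma and Matn1, and of 2 mast cell protease genes are shown. The latter are Mcpt4, which fell, and Cpa3, which narrowly missed the threshold. The cartilage matrix and the mast cell and basophil lists were the only lists with a gene that passed. Other lists, given below, also leaned to one side. Each runs from 250 bases before to 50 bases after the annotated start, 5′ to 3′ on the strand of the gene, from RefSeq on build GRCm38.p6: Ucma at chr2:4975872-4976171 (plus strand), Matn1 at chr4:130944135-130944434 (plus strand), Mcpt4 at chr14:56062261-56062560 (minus strand) and Cpa3 at chr3:20242132-20242431 (minus strand). Capitals mark the letters GATAA, the core bound by GATA factors, and ACAAAG or ACAATG, cores bound by SOX factors, on either strand. No match overlapped another.
Ucma: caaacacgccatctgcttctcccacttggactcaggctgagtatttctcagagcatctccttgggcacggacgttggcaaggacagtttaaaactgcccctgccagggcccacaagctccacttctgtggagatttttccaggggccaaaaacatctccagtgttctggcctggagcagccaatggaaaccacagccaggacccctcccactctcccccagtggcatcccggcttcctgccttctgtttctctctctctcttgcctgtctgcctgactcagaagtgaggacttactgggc
Matn1: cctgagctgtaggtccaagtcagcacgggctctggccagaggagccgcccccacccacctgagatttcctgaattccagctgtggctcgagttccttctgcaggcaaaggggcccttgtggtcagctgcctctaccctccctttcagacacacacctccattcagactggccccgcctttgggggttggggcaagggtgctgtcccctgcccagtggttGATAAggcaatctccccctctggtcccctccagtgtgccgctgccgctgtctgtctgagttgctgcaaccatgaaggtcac
Mcpt4: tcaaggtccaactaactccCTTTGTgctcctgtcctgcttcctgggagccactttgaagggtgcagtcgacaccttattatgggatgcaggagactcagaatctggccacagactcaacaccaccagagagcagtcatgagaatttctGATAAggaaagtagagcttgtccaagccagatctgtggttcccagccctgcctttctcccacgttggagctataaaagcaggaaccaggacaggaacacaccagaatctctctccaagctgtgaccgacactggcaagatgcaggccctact
Cpa3: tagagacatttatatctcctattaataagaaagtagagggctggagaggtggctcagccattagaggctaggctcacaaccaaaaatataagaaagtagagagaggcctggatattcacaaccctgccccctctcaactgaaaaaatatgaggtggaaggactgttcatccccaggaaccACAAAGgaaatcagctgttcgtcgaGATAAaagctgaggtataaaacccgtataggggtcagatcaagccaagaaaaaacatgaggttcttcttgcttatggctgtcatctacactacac
GATA factors are known regulators of mast cell genes, and SOX factors of cartilage genes. The GATA core occurred 1 time each in the Matn1, Mcpt4 and Cpa3 windows and 0 times in that of Ucma, and 25.4% of all 32851 RefSeq windows of this length held it. A SOX core occurred 1 time each in the Mcpt4 and Cpa3 windows and 0 times in those of Ucma and Matn1, against 28.6% of all windows. These matches are letters in these windows and do not show binding.

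Ucma, which encodes a secreted protein of the cartilage matrix, had the largest change of the genes that passed. Its levels in old replicates 1 to 5 were 8.45, 8.76, 9.30, 7.78 and 9.10, against 5.73, 7.0, 7.47, 8.10 and 6.68 in young replicates 1 to 5. The groups met only where old replicate 4 lay below young replicate 4, and young replicate 1 was lowest of all. The change was 1.68 ± 0.31 (3.21-fold, adjusted p = 0.027). Within the low-numbered arrays it was 2.67 (limma, adjusted p = 0.0094) and within the high-numbered arrays 1.03 (limma, adjusted p = 0.96, unadjusted p = 0.0099).

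Matn1, matrilin-1, a filament-forming protein of hyaline cartilage, had levels of 4.10, 5.11, 5.89, 4.81 and 5.18 in old replicates 1 to 5, against 3.69, 3.81, 4.64, 4.28 and 3.84 in young replicates. Old replicate 1 lay among the young arrays, and the other 4 old arrays lay above all of them. Matn1 rose by 0.97 ± 0.18 (1.95-fold, adjusted p = 0.027). Its young mean of 4.05 lay below 4.21, the mean level under which genes were treated as dim in one alternative, so the fold is set against a level near the low end of the arrays. The change was 1.75 within the low-numbered arrays (limma, adjusted p = 0.00041) and 0.45 within the high-numbered ones (limma, adjusted p = 0.96). The low-numbered change compared only old replicates 2 and 3, at 5.11 and 5.89, with young replicates 1 and 2, at 3.69 and 3.81. The error behind its p came largely from other arrays, among them those of days on which Matn1 varied less. That p is therefore not strong evidence from the low-numbered arrays by themselves.

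Mia encodes a small protein secreted by chondrocytes. Its levels were 6.61, 7.70, 8.58, 7.08 and 7.32 in old replicates 1 to 5 and 6.07, 5.23, 5.80, 7.02 and 5.80 in young replicates. Old replicate 1 was again the lowest old array and the only one below young replicate 4. The change was 1.47 ± 0.30 (2.78-fold, adjusted p = 0.037). It was 2.49 within the low-numbered arrays (limma, adjusted p = 0.0094) and 0.80 within the high-numbered ones (limma, adjusted p = 0.96, unadjusted p = 0.026). For Ucma, Matn1 and Mia the change was larger in the low-numbered arrays, with an unadjusted p for the difference between the series of 0.009, 0.0002 and 0.0036 (limma). These differences did not pass over all genes (adjusted p = 1.0 for each). By limma 0 genes passed that comparison, with 433 (2.17%) at an unadjusted p under 0.05.

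Scube1, a secreted and cell surface protein with CUB and EGF-like domains, measured 5.96, 7.64, 7.77, 7.25 and 7.73 in old replicates 1 to 5, against 6.21, 6.18, 6.29, 6.45 and 5.74 in young replicates. Old replicates 2 to 5 lay above every young array and old replicate 1 lay below 4 of the 5. The change was 1.10 ± 0.23 (2.14-fold, adjusted p = 0.041), being 1.51 within the low-numbered and 0.82 within the high-numbered arrays.

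Cnnm4 and Tmco3 rose with no overlap between the ages. Cnnm4, a magnesium transport protein, had 6.48, 6.98, 6.73, 6.79 and 6.98 in old replicates 1 to 5 and 5.98, 6.25, 6.28, 6.01 and 6.13 in young replicates, a change of 0.66 ± 0.14 (1.58-fold, adjusted p = 0.041). Tmco3, a gene for a transmembrane protein, had 6.53, 6.42, 6.48, 6.28 and 6.61 in old replicates and 6.11, 6.10, 5.99, 6.03 and 6.02 in young replicates. Its change was smaller, at 0.42 ± 0.08 (1.34-fold, adjusted p = 0.031), and its SD was 0.12 in old and 0.05 in young callus. Within the low-numbered and high-numbered arrays the changes were 0.74 and 0.61 for Cnnm4 and 0.35 and 0.46 for Tmco3.

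**Figure D1:**
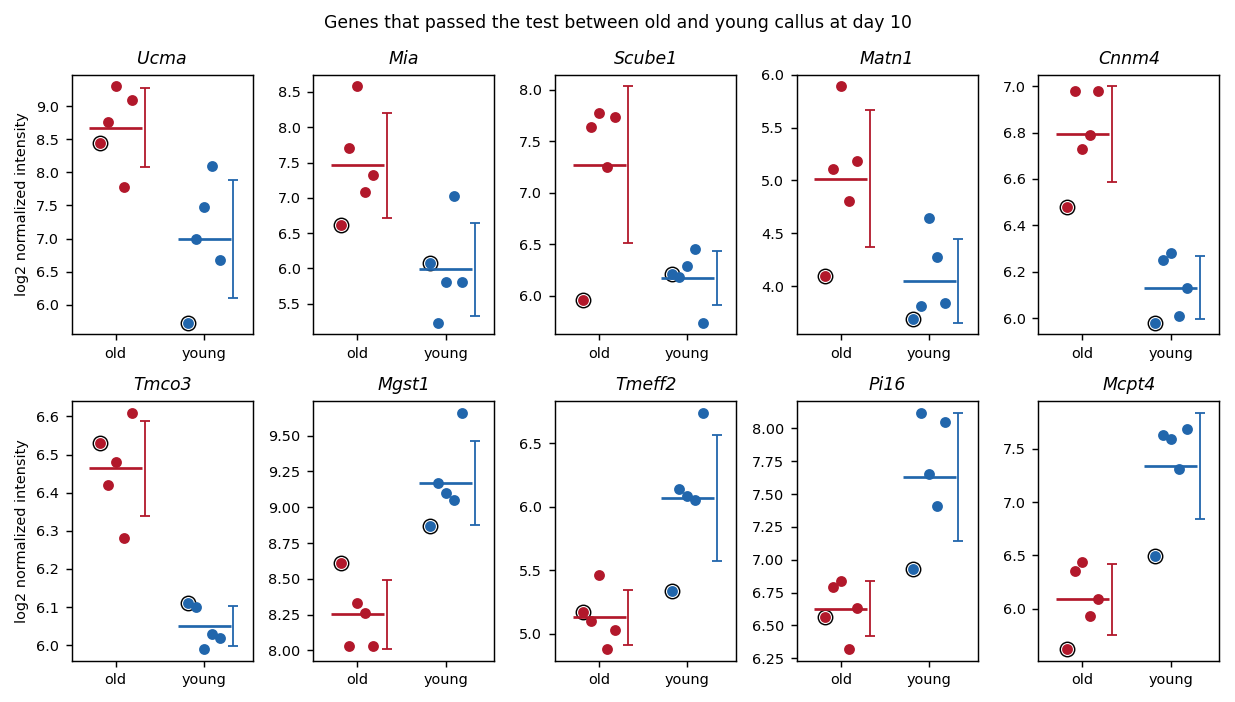
The 10 genes that passed the test at day 10, as log2 normalized intensity (vertical axis) in each array of old (red, left) and young (blue, right) callus. Horizontal lines are group means, bars beside them 1 SD (n = 5 each), and black rings mark replicate 1 of each age. Cnnm4, Tmco3, Mcpt4, Pi16 and Mgst1 show no overlap, and old replicate 1 is the lowest old array for Mia, Scube1, Matn1, Cnnm4 and Mcpt4.

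The cartilage matrix list as a whole leaned the same way. Of its 24 measured genes 2 rose (Ucma and Matn1), and 23 of 24 were above 0, with a median of 0.86 beside 0.004 over all genes. At an unadjusted p under 0.05, 14 were higher and 0 lower, where 4.39% and 3.35% of all genes were. The exception in sign was Cilp, at −0.36. The groups did not overlap for 1 member, on the higher side, as for 1.25% of all genes. The median was 1.11 within the low-numbered and 0.70 within the high-numbered arrays. In a whole callus more chondrocytes and more RNA of these genes per chondrocyte cannot be told apart.

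Among the fibril-forming and associated collagens of cartilage, the type IX chains came nearest to the threshold. Col9a3 had 7.38, 8.28, 8.96, 8.35 and 9.03 in old replicates 1 to 5, against 6.98, 7.48, 7.55, 7.94 and 7.02 in young replicates, and only old replicate 1 lay within the young range (1.00 ± 0.22, adjusted p = 0.074). Col9a1 differed by 1.09 ± 0.26 (adjusted p = 0.13) and Col9a2 by 0.65 ± 0.20 (adjusted p = 0.40). Type II collagen, the main fibre of cartilage, had Col2a1 levels of 8.62, 10.25, 10.43, 10.42 and 10.58 in old replicates and 8.85, 9.32, 9.72, 9.63 and 8.18 in young replicates. Old replicates 2 to 5 lay above all young arrays and old replicate 1 below 4 of them (0.92 ± 0.37, adjusted p = 0.55). Col11a2, of type XI collagen, differed by 0.45 ± 0.26 (adjusted p = 0.71).

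The proteoglycans and linking proteins did not pass. Acan, the core protein of aggrecan, had 10.65, 11.62, 11.66, 11.52 and 11.89 in old replicates 1 to 5 and 9.78, 10.67, 10.39, 10.86 and 9.74 in young replicates. Old replicate 1 lay below young replicates 2 and 4, and the other old arrays lay above every young array (1.18 ± 0.50, adjusted p = 0.59). This SE took in SDs of 1.43 in old and 1.12 in young callus at day 5, against 0.48 and 0.51 at day 10. With the 10 arrays alone and the numbering series as a block, the unadjusted p was 0.00088 for Acan (limma). It was 0.0013 for Ucma and 0.0057 for Matn1 in that fit, in which 0 genes passed. Hapln1, the link protein that ties aggrecan to hyaluronan, overlapped between the ages (0.53 ± 0.53, adjusted p = 0.87). The matrix bridging genes Matn3 (1.15 ± 0.41, adjusted p = 0.46), Matn4 (0.84 ± 0.19, adjusted p = 0.083) and Comp (1.07 ± 0.35, adjusted p = 0.42) did not pass. Snorc, a cartilage membrane proteoglycan, differed by 1.28 ± 0.39 (adjusted p = 0.40) and the cartilage lectin gene Clec3a by 1.05 ± 0.52 (adjusted p = 0.64).

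The arrays decided how many of these genes passed. Without old replicate 1, 7 cartilage matrix genes passed, namely Ucma, Matn1, Snorc, Col9a1, Col9a2, Col9a3 and Matn4. Without both replicate 1 arrays 6 passed. Without young replicate 4, 5 passed, and without young replicate 2, 1 did. Of all 19938 genes, 49, 156, 18 and 2 passed in these fits, in the same order. Without young replicate 1, young replicate 5, or any of old replicates 2, 3 and 5, 0 cartilage matrix genes passed. Of all genes, 11, 0, 1, 2 and 0 passed in those fits. The mean log2 level of the list was 8.28, 8.88, 9.25, 8.92 and 9.14 in old replicates 1 to 5, against 7.69, 8.28, 8.32, 8.49 and 7.77 in young replicates. Young replicates 1 and 5, lowest for cartilage, were the highest of the 10 arrays for erythroid genes, at 7.69 and 6.75, and the part of this in the result was not tested.

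Regulators of chondrocytes had 0 of 17 measured genes past the adjusted threshold by limma. At an unadjusted p under 0.05, 9 were higher and 0 lower, beside 4.39% and 3.35% of all genes. The median was 0.34 (0.20 without young replicate 1). Sox9, the transcription factor that chondrocytes require, had 8.15, 8.15, 8.65, 8.15 and 8.61 in old replicates 1 to 5, against 7.17, 7.59, 7.69, 8.14 and 7.58 in young replicates. Every old array lay above every young array, though young replicate 4 lay close below (0.71 ± 0.22, adjusted p = 0.40). Foxa3, a forkhead factor of maturing chondrocytes in mice, had 4.40, 4.60, 5.02, 4.49 and 5.50 in old replicates and 4.08, 4.12, 4.22, 4.09 and 4.31 in young replicates, with no overlap (0.64 ± 0.14, adjusted p = 0.083). Its young mean of 4.16 lay below 4.21, the mean level under which genes were treated as dim in one alternative. The joint and cartilage growth factor gene Gdf5 differed by 0.52 ± 0.14 (adjusted p = 0.26) and the growth plate receptor gene Fgfr3 by 0.71 ± 0.20 (adjusted p = 0.32). Without old replicate 1, 3 regulators passed, Fgfr3, Ihh and Foxa3, beside 49 (0.246%) of all genes.

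Of 11 hypertrophic cartilage genes 0 passed by limma. At an unadjusted p under 0.05, 4 were higher and 0 lower, beside 4.39% and 3.35% of all genes. The list median was 0.34 (0.51 without both replicate 1 arrays). Ihh, the hedgehog ligand of prehypertrophic chondrocytes, had 5.98, 7.16, 7.35, 7.29 and 7.45 in old replicates 1 to 5 and 6.72, 6.38, 6.00, 6.58 and 6.31 in young replicates. Old replicate 1 lay below every young array and the other old arrays above every young array (0.65 ± 0.19, adjusted p = 0.32). Scin, an actin-severing protein, had no overlap (0.73 ± 0.23, adjusted p = 0.40). Col10a1, the type X collagen that defines hypertrophic chondrocytes, measured 10.71, 11.45, 11.77, 11.60 and 11.66 in old replicates and 10.95, 11.42, 11.00, 11.47 and 11.20 in young replicates. The ages overlapped and the change was 0.23 ± 0.38 (adjusted p = 0.94).

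**Figure D2:**
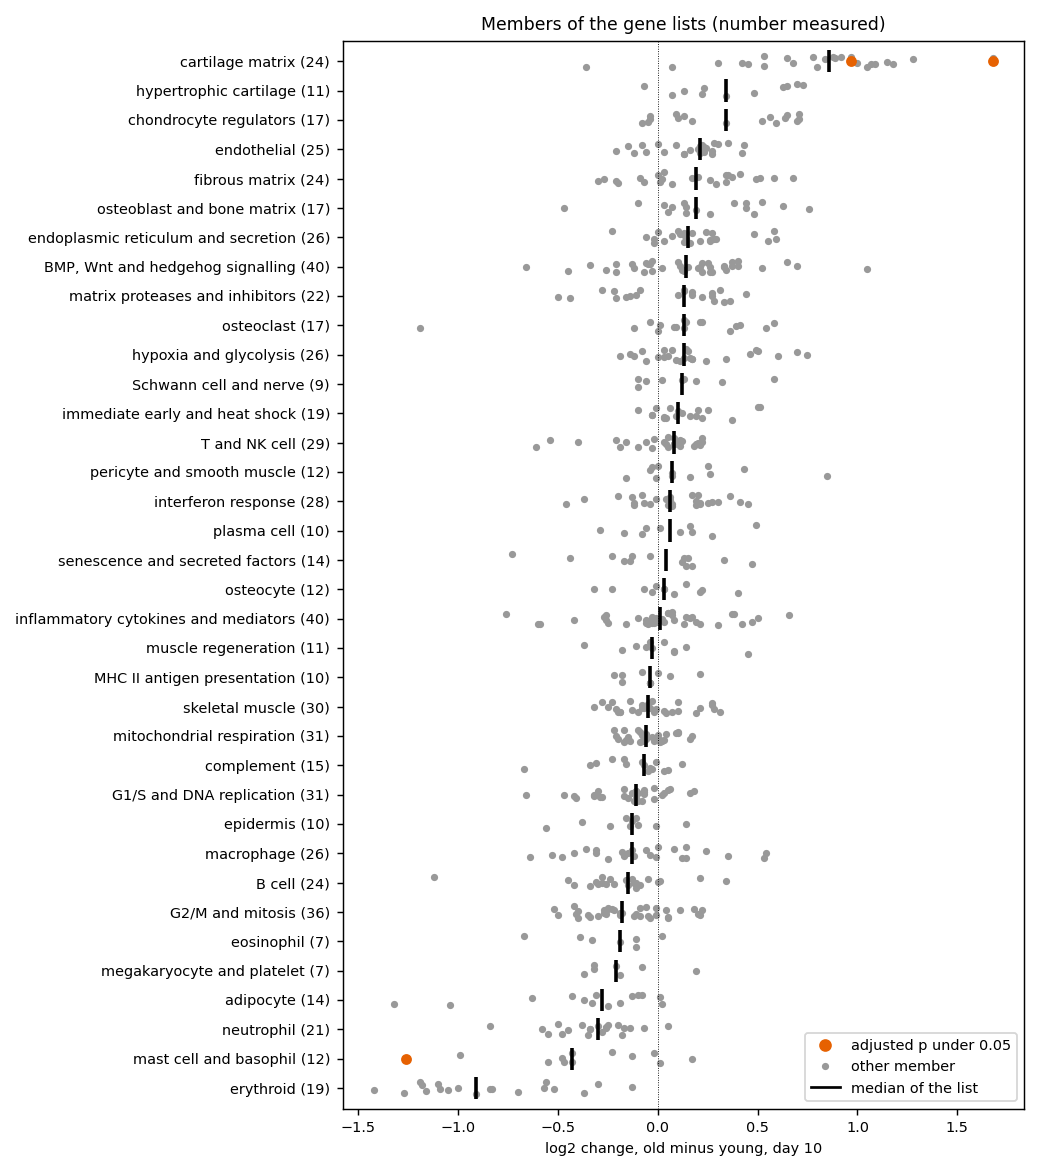
Log2 change, old minus young at day 10 (horizontal axis), of each measured member of the 36 gene lists (rows, with the number measured), ordered by their medians. Orange points passed the test (Ucma, Matn1 and Mcpt4), grey points did not, and black bars are the list medians, which run from 0.86 for cartilage matrix to −0.91 for erythroid genes.

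Bone-forming and bone-resorbing lists held 0 genes that passed by limma. Of 17 osteoblast and bone matrix genes 1 was higher and 0 lower at an unadjusted p under 0.05, beside 4.39% and 3.35% of all genes. Their median was 0.19 (0.39 without both replicate 1 arrays). The largest difference was that of Smpd3, a sphingomyelinase needed for mineralisation (0.76 ± 0.34, adjusted p = 0.62). The median over 12 osteocyte genes was 0.03. Among 17 osteoclast genes (median 0.13, and 0.36 without both replicate 1 arrays) the differentiation factor gene Nfatc1 differed by 0.54 ± 0.17 (adjusted p = 0.40) and Car2, which red cells share with osteoclasts, by −1.19 ± 0.53 (adjusted p = 0.61). In old replicate 1 the osteoblast list had its lowest mean level, 8.89, while the other old arrays had 9.53 to 9.81 and the young arrays 9.0 to 9.58.

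Genes of glucose use, collagen processing and secretion had 0 genes past the adjusted threshold by limma. Of 26 hypoxia and glycolysis genes 7 were higher and 0 lower at an unadjusted p under 0.05, with a median of 0.13. The shares of all genes, for this and the other lists of this paragraph, were 4.39% higher and 3.35% lower. Slc2a1, the main glucose transporter of many cells, had 7.43, 7.95, 7.92, 7.54 and 8.16 in old replicates 1 to 5, against 6.78, 7.20, 7.31, 7.38 and 6.85 in young replicates. The ages did not overlap (0.70 ± 0.15, adjusted p = 0.074), and Pfkl, of the glycolytic enzyme phosphofructokinase, did not overlap either (0.50 ± 0.13, adjusted p = 0.24). Of 26 endoplasmic reticulum and secretion genes, 7 were likewise higher and 0 lower (median 0.15), among them the collagen-modifying enzyme genes P3h2 (0.59 ± 0.20, adjusted p = 0.46) and Plod1 (0.55 ± 0.20, adjusted p = 0.47). Among 40 BMP, Wnt and hedgehog genes 7 were higher and 3 lower (median 0.14).

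Mast cell protease genes included the gene with the lowest p of all. Mcpt4, the chymase of connective tissue mast cells in mice, had 5.62, 6.35, 6.44, 5.93 and 6.09 in old replicates 1 to 5, against 6.49, 7.63, 7.59, 7.31 and 7.69 in young replicates. Every old array lay below every young array, young replicate 1 being the young array nearest to them. Old replicate 1 was the lowest old array. Mcpt4 fell by 1.26 ± 0.22 on the log2 scale (to 0.419 of the young level, adjusted p = 0.022). The change was −0.66 within the low-numbered arrays (adjusted p = 1.0) and −1.65 within the high-numbered ones (adjusted p = 0.0044). The difference between the series had an unadjusted p of 0.025 and did not pass over all genes (limma).

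Of the 12 measured mast cell and basophil genes, 10 were below 0 and 2 above, and the members other than Mcpt4 did not pass. Cpa3, the mast cell carboxypeptidase, had 5.53, 5.81, 5.75, 5.73 and 6.01 in old replicates 1 to 5 and 6.46, 6.90, 6.51, 6.58 and 7.35 in young replicates, with no overlap (−0.99 ± 0.21, adjusted p = 0.053). The chymase gene Cma1 had 4.16, 4.31, 4.27, 4.24 and 4.15 in old replicates and 4.58, 4.68, 4.67, 4.77 and 5.20 in young replicates, again with no overlap (−0.55 ± 0.13, adjusted p = 0.11). Its old mean of 4.23 lay close to 4.21, the mean level under which genes were treated as dim in one alternative. The tryptase gene Tpsb2 (−0.48 ± 0.12, adjusted p = 0.18) and the IgE receptor chain gene Fcer1a (−0.47 ± 0.21, adjusted p = 0.60) differed by less.

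Over the whole mast cell and basophil list 1 gene fell, with a median of −0.43. At an unadjusted p under 0.05, 5 were lower and 0 higher, beside 3.35% and 4.39% of all genes. The list median was −0.18 without young replicate 1 and −0.08 without both replicate 1 arrays. The groups did not overlap for 4 members, all on the lower side, where 0.657% of all genes did not. The 2 members above 0 were Gata2, a transcription factor shared with blood progenitors and endothelium (0.17 ± 0.16, adjusted p = 0.85, chosen after its values were seen), and Ms4a2. Kit, the receptor mast cells depend on and share with other cells (−0.13 ± 0.20, adjusted p = 0.93), the receptor chain gene Ms4a2 (0.01 ± 0.14, adjusted p = 1.0) and the basophil protease gene Mcpt8 (−0.43 ± 0.37, adjusted p = 0.84) overlapped. In the fits without both replicate 1 arrays 4 members passed, all lower, and without young replicate 1 or young replicate 4 alone 3 and 2 did. Of all 19938 genes, 156, 11 and 18 passed in these fits. Without young replicate 2, young replicate 5 or old replicate 5, 0 members did, and 2, 0 and 0 of all genes.

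Pi16, Tmeff2 and Mgst1 also fell in old callus. Pi16, a peptidase inhibitor that marks a fibroblast population of connective tissue, had 6.56, 6.79, 6.84, 6.32 and 6.63 in old replicates 1 to 5, against 6.93, 8.12, 7.65, 7.41 and 8.05 in young replicates, with no overlap (−1.0 ± 0.19, adjusted p = 0.027). Tmeff2, a transmembrane protein with EGF-like and follistatin-like domains, had 5.17, 5.10, 5.46, 4.88 and 5.03 in old replicates and 5.34, 6.14, 6.08, 6.05 and 6.74 in young replicates. Only young replicate 1 came within the old range (−0.95 ± 0.18, adjusted p = 0.027). Mgst1, a membrane-bound glutathione transferase, had 8.61, 8.03, 8.33, 8.26 and 8.03 in old replicates and 8.87, 9.17, 9.10, 9.05 and 9.66 in young replicates, with no overlap (−0.92 ± 0.17, adjusted p = 0.027). For Pi16 and Tmeff2 young replicate 1 was the lowest young array, as it was for Mcpt4 and Mgst1. Within the low-numbered and high-numbered arrays the changes were −0.71 and −1.2 for Pi16, −0.46 and −1.27 for Tmeff2, and −0.84 and −0.97 for Mgst1. The difference between the series had an unadjusted p of 0.029 for Tmeff2 and did not pass over all genes (limma).

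**Figure D3:**
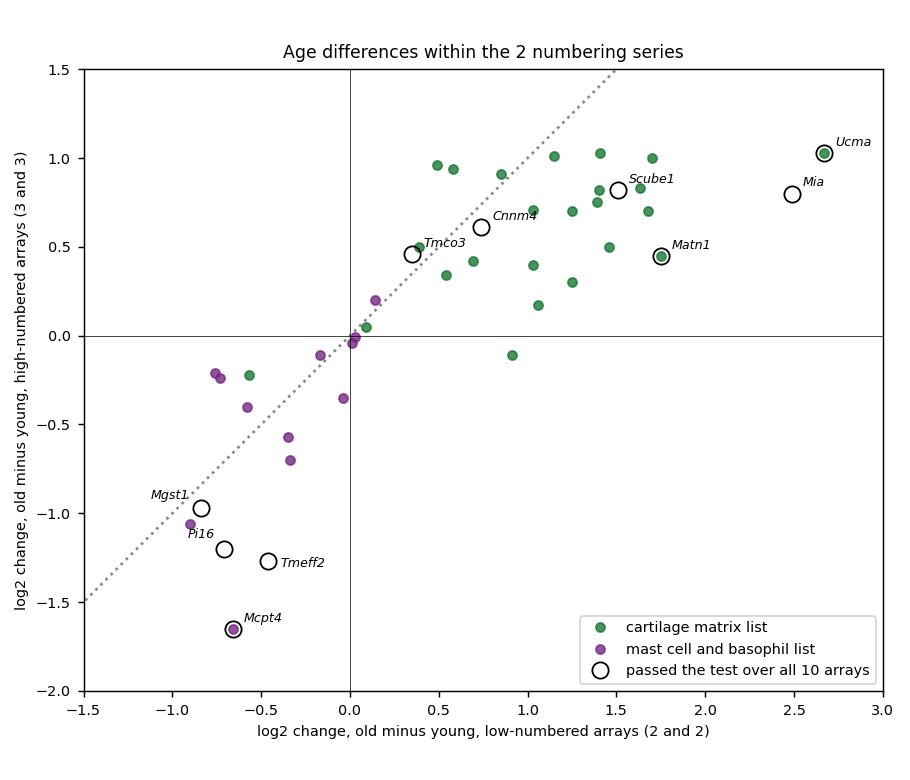
Log2 change, old minus young, within the 3 old and 3 young high-numbered arrays (vertical axis) against that within the 2 old and 2 young low-numbered arrays (horizontal axis), for cartilage matrix genes (green), mast cell and basophil genes (purple) and the genes that passed over all 10 arrays (black rings); the dotted line marks equal changes. All 10 ringed genes have the same sign in both series, with Ucma at 2.67 and 1.03 and Mcpt4 at −0.66 and −1.65 in the low and high series. They were chosen on these same arrays, so the shared sign is no separate test.

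Erythroid genes varied widely among young arrays. All 19 measured erythroid genes were below 0 (median −0.91), and 0 passed by limma. Of these, 4 were lower at an unadjusted p under 0.05, beside 3.35% of all genes. The median was −0.45 without young replicate 1 and −0.35 without both replicate 1 arrays. Alas2, the first enzyme of haem synthesis in red cell precursors, had 6.54, 6.62, 6.64, 6.79 and 6.91 in old replicates 1 to 5, against 8.96, 7.44, 7.35, 6.55 and 8.19 in young replicates. Young replicates 1 and 5 were far above the rest and young replicate 4 was level with the old arrays (−1.0 ± 0.38, adjusted p = 0.51). The mean level of the list was 4.96 to 5.63 in old callus, against 7.69, 6.31, 5.11, 4.98 and 6.75 in young replicates 1 to 5. Its median change was −1.82 within the low-numbered and −0.27 within the high-numbered arrays.

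Neutrophil genes were below 0 for 20 of 21 members (median −0.30), with 0 at an unadjusted p under 0.05. The sign of this median turned with the arrays: it was −0.11 without old replicate 1, −0.11 without young replicate 1 and 0.10 without both. Their mean level was 6.81 to 8.25 in old callus, lowest in replicate 1, and 7.30 to 8.80 in young callus, highest in replicate 1. The pre-B cell receptor gene Vpreb1 was the B cell gene with the lowest p, at −1.12 ± 0.34 (adjusted p = 0.38), and 21 of 24 B cell genes were below 0 (median −0.15). Megakaryocyte and platelet genes had a median of −0.21, which was −0.06 without young replicate 1 and 0.06 without both replicate 1 arrays, and −0.59 within the low-numbered and 0.05 within the high-numbered arrays. Eosinophil genes had a median of −0.19, and of −0.11 without young replicate 1.

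Macrophage and inflammatory genes showed 0 members past the adjusted threshold by limma. Of 26 macrophage genes 0 were higher and 4 lower at an unadjusted p under 0.05, beside 4.39% and 3.35% of all genes. Their median was −0.13, and −0.24 without both replicate 1 arrays. The monocyte chemokine receptor gene Ccr2 had no overlap between the ages (−0.64 ± 0.21, adjusted p = 0.42), and Lyve1, found on tissue macrophages and lymphatic vessels, differed by −0.48 ± 0.18 (adjusted p = 0.51). Among 40 inflammatory cytokine and mediator genes the median was 0.01, with 1 higher and 3 lower at an unadjusted p under 0.05, beside the same shares. The chemokine gene Cxcl14 had 8.07, 8.27, 8.17, 8.05 and 8.10 in old replicates 1 to 5, against 8.45, 9.08, 8.88, 8.31 and 8.95 in young replicates, so that old callus was lower in every array (−0.60 ± 0.16, adjusted p = 0.22). Ccl6, a chemokine of myeloid cells, also had no overlap (−0.76 ± 0.23, adjusted p = 0.38). Medians were 0.06 over 28 interferon genes, −0.04 over 10 MHC II genes, −0.07 over 15 complement genes and 0.08 over 29 T and NK cell genes. For interferon genes the median was 0.43 within the low-numbered and −0.13 within the high-numbered arrays. The interferon-response factor gene Irf1 lay higher in old callus without overlap (0.41 ± 0.15, adjusted p = 0.48).

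Cell division genes did not pass. Of 36 G2/M and mitosis genes 28 were below 0 (median −0.18). At an unadjusted p under 0.05, 2 were lower, beside 3.35% of all genes. The DNA topoisomerase gene Top2a differed by −0.50 ± 0.22 (adjusted p = 0.62) and the proliferation marker gene Mki67 by −0.41 ± 0.28 (adjusted p = 0.78). Of 31 G1/S and DNA replication genes 25 were below 0 (median −0.11), and without young replicate 1 the medians were −0.09 for G2/M and −0.01 for G1/S genes. The cyclin gene Ccne2 was at −0.66 ± 0.23 (adjusted p = 0.47). Ccne2 had 7.10, 6.30, 6.29, 6.24 and 6.42 in old replicates 1 to 5 and 7.04, 7.21, 7.32, 7.0 and 7.07 in young replicates. Old replicate 1 lay within the young range, and the other old arrays lay below it.

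Adipocyte genes had a median of −0.28 over 14 members. At an unadjusted p under 0.05, 5 were lower and 0 higher, beside 3.35% and 4.39% of all genes. Without overlap 4 were lower, beside 0.657% of all genes. Adipoq, the adipocyte hormone adiponectin, had 5.36, 6.08, 5.98, 5.81 and 5.85 in old replicates 1 to 5, against 6.88, 7.31, 6.63, 6.95 and 7.93 in young replicates. Every old array lay below every young array, and the change did not pass (−1.32 ± 0.34, adjusted p = 0.20). The insulin-like growth factor binding protein gene Igfbp6 also had no overlap (−0.73 ± 0.20, adjusted p = 0.27). The skeletal muscle list, which gauges adjoining muscle, had a median of −0.05 over 30 genes, with 0 at an unadjusted p under 0.05. Its mean level was 9.22 to 9.77 in old and 9.12 to 9.71 in young callus. The median of this list was −0.4 within the low-numbered and 0.14 within the high-numbered arrays.

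The remaining lists held 0 genes that passed by limma. Endothelial genes had a median of 0.21 over 25 members (0.34 without both replicate 1 arrays). At an unadjusted p under 0.05, 2 were higher, beside 4.39% of all genes. These were Erg (0.43 ± 0.17, adjusted p = 0.53) and Robo4 (0.35 ± 0.16, adjusted p = 0.62), both of vessel lining cells. Fibrous matrix genes had a median of 0.19 over 24 (0.06 without both replicate 1 arrays), with 3 higher and 1 lower, beside 4.39% and 3.35% of all genes. Without overlap 5 were higher, beside 1.25% of all genes, among them Col6a2 (0.58 ± 0.23, adjusted p = 0.55) and Col16a1 (0.41 ± 0.13, adjusted p = 0.40). The pericyte proteoglycan gene Cspg4, also expressed by chondrocytes, differed by 0.85 ± 0.26 (adjusted p = 0.40). The aggrecan-cleaving protease gene Adamts5 differed by −0.50 ± 0.17 (adjusted p = 0.44). Medians were 0.13 for matrix proteases and inhibitors, 0.07 for pericytes and smooth muscle, 0.12 for Schwann cells and nerve, −0.13 for epidermis, −0.03 for muscle regeneration, 0.06 for plasma cells, −0.06 for mitochondrial respiration, 0.04 for senescence and secreted factors and 0.10 for immediate early and heat shock genes.

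**Figure D4:**
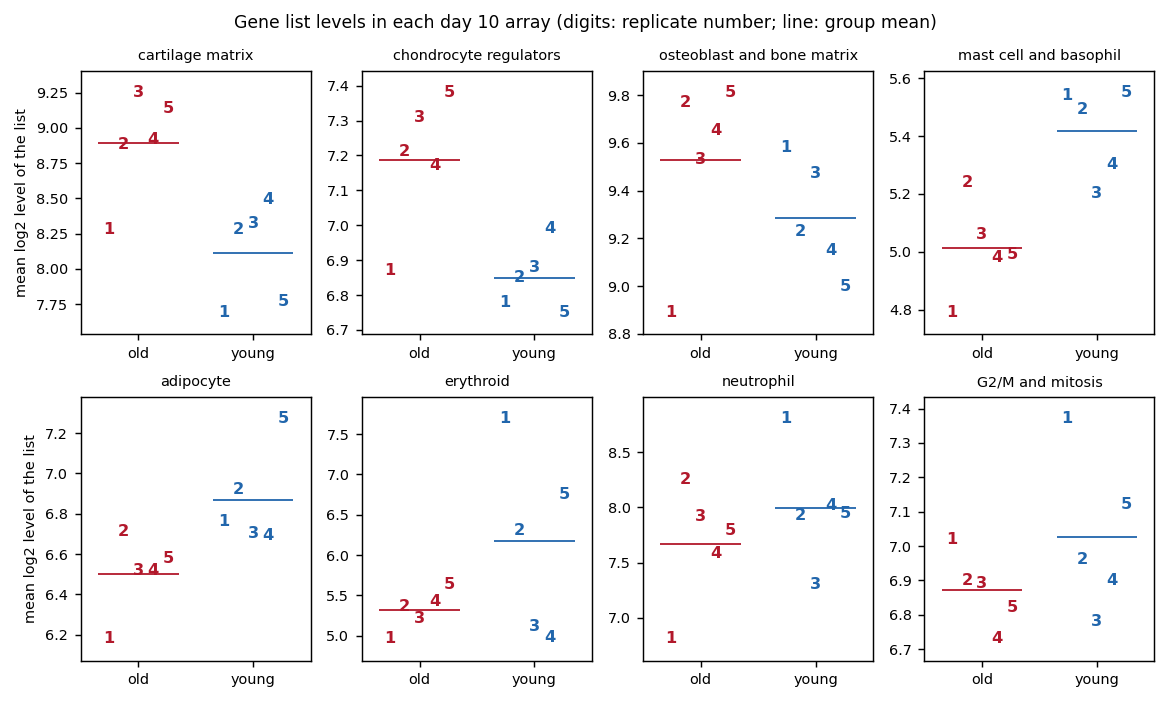
Mean log2 level (vertical axes) of 8 gene lists in each day 10 array of old (red, left) and young (blue, right) callus; digits are replicate numbers and lines group means. Old replicate 1 is the lowest old array for cartilage, bone, mast cell and neutrophil lists, and young replicate 1 the highest array for erythroid (7.69), neutrophil (8.80) and G2/M genes.

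Ucma, Mia, Scube1 and Matn1 had their highest mean level at day 10 in both ages. Ucma was 4.72 ± 0.53 in old and 5.16 ± 0.70 in young callus at day 5 (SD, n = 5 each). It was 8.68 ± 0.60 in old and 7.0 ± 0.89 in young callus at day 10, and 4.55 ± 0.20 in old and 4.87 ± 0.35 in young callus at day 20. Matn1 was 3.58 ± 0.21 in old and 3.67 ± 0.20 in young callus at day 5 and 3.92 ± 0.09 in old and 3.73 ± 0.14 in young callus at day 20. The age change of Ucma was −0.44 ± 0.31 at day 5 and −0.32 ± 0.31 at day 20, and neither passed (adjusted p = 0.55 and 0.67). Its change at day 10 exceeded that at day 5 by 2.12 ± 0.45 (adjusted p = 0.064), which did not pass.

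Mcpt4 and Tmeff2 lay lower in old callus at day 5 as well. Mcpt4 was 5.90 ± 0.41 in old and 6.57 ± 0.61 in young callus at day 5 (−0.68 ± 0.22, adjusted p = 0.11), and 5.73 ± 0.09 in old and 5.79 ± 0.25 in young callus at day 20. Tmeff2 was 5.21 ± 0.22 in old and 5.99 ± 0.35 in young callus at day 5, where it fell by 0.78 ± 0.18 (adjusted p = 0.039). Tmeff2 was the one gene of the 10 that passed on another day. Mgst1 had its lowest mean level at day 10 in old mice and at day 20 in young mice. At day 20 it was 8.75 ± 0.19 in old and 8.46 ± 0.50 in young callus, so that the sign at day 20 was opposite (0.28 ± 0.17, adjusted p = 0.44).

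**Figure D5:**
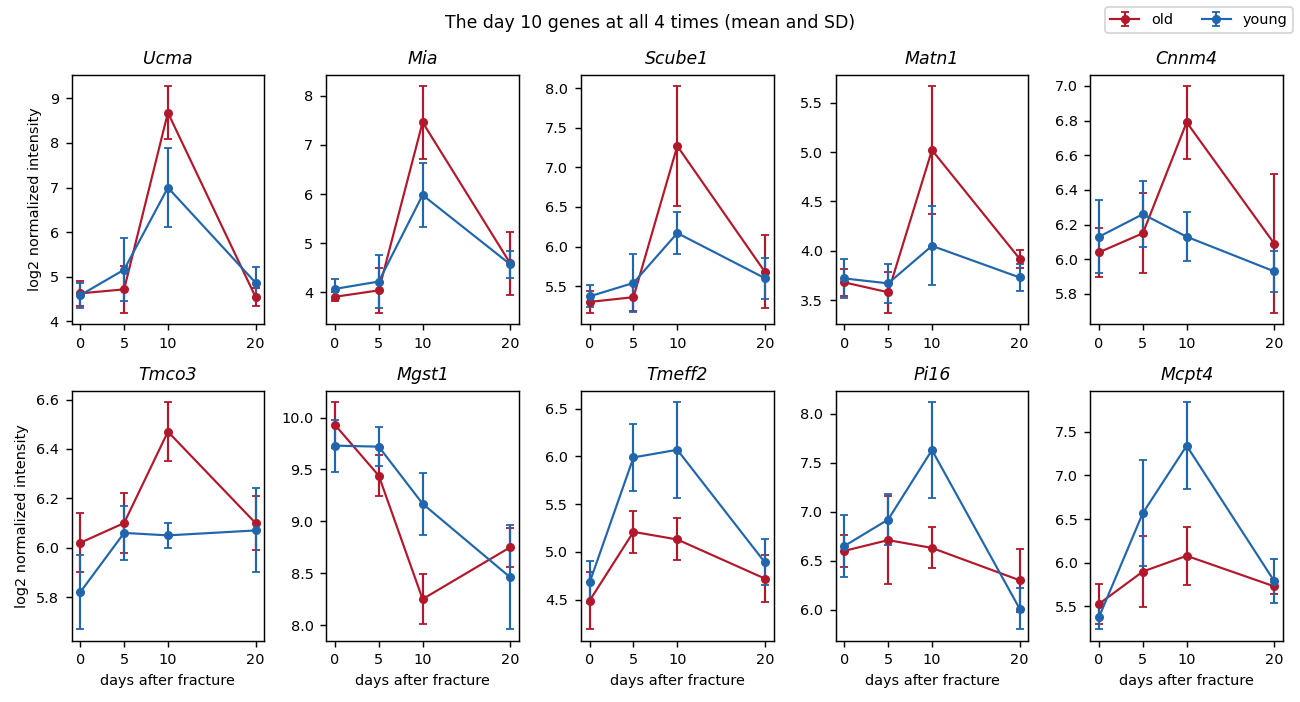
Log2 normalized intensity (vertical axes, mean ± SD) of the 10 genes before fracture (day 0) and 5, 10 and 20 days after it in old (red) and young (blue) mice, n = 5 in each group and 6 for old mice at day 0. The ages separate at day 10, where Ucma is 8.68 in old and 7.0 in young callus, and Tmeff2 also separates at day 5.

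Tests of whether the age difference at day 10 differed from that on another day found 2 genes (0.01%) against day 5, with 2203 (11.0%) at an unadjusted p under 0.05. By limma they found 0 against day 20 and 0 against day 0, where 1895 (9.5%) and 1034 (5.19%) genes had an unadjusted p under 0.05. Bcat1, a cytosolic enzyme of branched-chain amino acid breakdown, had 7.86, 7.60, 7.58, 7.53 and 7.58 in old replicates 1 to 5 and 6.78, 7.28, 7.11, 7.19 and 7.12 in young replicates at day 10. At day 5 the order was turned, with 7.41 ± 0.55 in old and 8.22 ± 0.22 in young callus (−0.81 ± 0.18, adjusted p = 0.036), and the change at day 10 exceeded that at day 5 by 1.34 ± 0.25 (adjusted p = 0.045). Fam207a was 5.76 ± 0.14 in old and 6.18 ± 0.17 in young callus at day 5, and its day 10 change of 0.38 ± 0.10 exceeded that at day 5 by 0.80 ± 0.15 (adjusted p = 0.045). Between the ages, 12 genes (0.0602%) passed at day 0, 91 (0.456%) at day 5 and 1 (0.00502%) at day 20. None of the 10 genes that passed at day 10 passed a test between days.

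The authors' deposited table gave the day 10 contrast a step-up adjusted p under 0.05 for 1 probe set, which was not the probe set used here for any named gene, and an unadjusted p under 0.05 for 2068 probe sets. In the authors' deposited table the step-up p was 0.05 for Mcpt4, 0.063 for Ucma, Matn1, Mgst1 and Tmco3, 0.065 for Pi16 and Tmeff2, 0.096 for Cnnm4, 0.11 for Mia and 0.12 for Scube1. Their log2 differences matched those computed here within 5e-05.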

How the data were processed

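Labelled cDNA from total RNA of single mice was hybridised to Affymetrix Mouse Gene 1.0 ST arrays. The authors deposited log2 normalized intensities, and Partek is named in the submitters' processing notes. How background was corrected and probes were summarized is not given in the sources used here. Both deposited value tables were identical in 1181415 cells, and no normalization was added. The authors also deposited ANOVA p-value columns, unadjusted and step-up adjusted, and ratio columns of group means, per the file headers. These served only for the comparison named as theirs. Array medians at day 10 were 5.413 to 5.483.

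Of 28815 probe sets 21782 had 1 gene in the platform annotation, 1598 had several and were left out, and 5435 were not in it. For 999 genes with several probe sets the one with the highest mean was kept, which left 19938 genes. Groups were age by day from the labels. A limma 3.58.1 fit in R 4.3.3 with a mean for each of 8 groups (33 residual degrees of freedom) gave moderated two-sided p values, adjusted by Benjamini-Hochberg over all genes. The fit was tested on simulated data. Tables and figures used python 3.11.15, pandas 2.3.3, numpy 2.4.6 and matplotlib 3.10.9.

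Members and the 36 gene lists were chosen with earlier results of these data known. Lists are described by counts and medians without a set test. Named genes were the largest 15 changes in each direction that passed without overlap (predicted genes skipped), up to 4 members of each list that passed or the 2 with the smallest p, and the genes that passed between days. Others, among them Cpa3, Cma1, Col2a1, Acan, Sox9, Col10a1, Fgfr3 and the small RNAs in the closing section, were chosen after their values were seen. List members whose symbol matched no measured gene were left out. Alternatives were other normalizations, filters on dim genes, probe set rules and variance estimates, array weights, a replicate or numbering block, fits within a numbering series, the 10 arrays alone, a 2-fold minimum, leaving out each array and, added after seeing the data, leaving out both replicate 1 arrays.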

Additional observations from a re-analysis of the deposited data

Results flagged for a closer look

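Both groups of 103 named genes were searched for an array whose gap to its nearest neighbour took more than 0.71 of the group's range, which chance gives in about 1 of 20 groups. There were 22 such values, 17 of them in old replicate 1. In that array cartilage and bone genes were far below the other old arrays: Ihh at 5.98, Scube1 at 5.96, Col9a2 at 6.53, Col2a1 at 8.62, Snorc at 7.88, Clec3a at 10.18, Smpd3 at 7.93, Fam20c, a kinase of mineralising tissue, at 6.19 and Nfatc1 at 7.44 (log2 normalized intensity). Kit at 5.46 and Robo4 at 6.24 were also lowest there. Division genes were highest there, with Ccne2 at 7.10, Pola1 at 6.46, Ndc80 at 7.47 and Mki67 at 8.48, as were Bcat1 at 7.86 and Cox7b, of the respiratory chain, at 11.66. The remaining values were Itga2b at 5.47 (highest) and Fcer1a at 3.87 (lowest) in old replicate 4, Erg at 8.31 (highest) in old replicate 3, Pdpn at 8.22 (lowest) in young replicate 1 and Krt1 at 5.00 (highest) in young replicate 5.

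The age difference was larger at day 10 than at day 5 by 1.34 for Bcat1 and by 0.80 for Fam207a (limma, adjusted p = 0.045 for each), and the sign was opposite at day 5 for both genes.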

How the results depend on the processing

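All 10 genes that passed kept their direction under every alternative in which they were tested. The alternatives reused arrays on which these genes were chosen, so the kept direction is no separate test. Quantile normalization, median centring, keeping the 14953 brightest genes, and eBayes with trend and robust each called 10 genes, 9 of them among the 10, and the mean of probe sets and the second value table called the same 10. Other settings moved the counts, given as all, higher and lower, then cartilage matrix and mast cell members. An unmoderated ANOVA test (lowest adjusted p 0.058), the 10 arrays alone, and these with the numbering series as a block (lowest adjusted p 0.11) gave 0 for each. Array quality weights gave 788, 426 and 362, then 13 and 4. Within the low-numbered arrays 3 passed, 3 and 0, then 2 and 0, and within the high-numbered arrays 3 passed, 0 and 3, then 0 and 1. A 2-fold minimum left 5, 3 and 2, then 1 and 1. Among the 9969 brightest genes 7 passed, 3 of them higher and 4 lower, then 0 and 2, and among the 14953 brightest cartilage members were 1 and mast cell members 2. Mast cell members were also 2 under quantile normalization, median centring, eBayes with trend and robust, and the replicate block. Leaving out 1 array gave 0 to 49 genes, 0 to 36 higher, 0 to 13 lower, 0 to 7 cartilage and 0 to 3 mast cell members. Without both replicate 1 arrays there were 156, 48 and 108, then 6 and 4. Matn1 was too dim over all arrays to enter either setting of the brightest genes, and Ucma, Mia and Tmeff2 did not enter that of 9969. They were therefore not tested there, and the cartilage counts fell with Matn1 and Ucma. The cause of the other moves was not tested.

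Against day 5 (2 genes) the count was 5 under quantile normalization and under median centring, 4 and 8 among the 14953 and 9969 brightest genes, 0 in the unmoderated test and with trend and robust, 158 with array weights, 7 with the replicate block, 1 with a 2-fold minimum, 0 to 27 without 1 array and 16 without both. Against day 20 (0 genes) it was 3 with array weights, 0 to 5 without 1 array and 6 without both. Against day 0 (0 genes) it was 31 with array weights, 0 to 5 without 1 array and 7 without both.

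Replicate numbers did not pair the ages: correlations of deviations from the group means between arrays of the same number were −0.469, 0.038, −0.098, −0.167 and −0.25. With the replicate block 7 genes passed, 2 higher and 5 lower, 6 of them among the 10. Among the 103 named genes signs turned only for values close to 0 or not past the threshold: without both replicate 1 arrays for Ctss (−0.02), Myh8 (−0.06), Myh3 (−0.06) and Kit (0.03), within the low-numbered arrays for C4b (0.18), Myh8 (−0.29), Myh3 (−0.09) and Mirlet7c-1 (0.07), within the high-numbered arrays for Clec1b (0.05) and Ms4a2 (−0.01), and for Ms4a2 also with array weights (−0.01), without both replicate 1 arrays (0) and without single arrays (−0.02 to 0.06). With 5 arrays a group and a median SE of 0.12 over all genes, small changes could not be told from 0.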

Other observations

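Small RNA genes were among the larger differences outside the lists. Snord118, the U8 small nucleolar RNA that takes part in ribosomal RNA processing, had 8.89, 8.26, 8.34, 9.59 and 8.39 in old replicates 1 to 5, against 9.40, 10.64, 11.00, 9.65 and 10.06 in young replicates. Only old replicate 4 lay within the young range, and the difference of −1.46 ± 0.36 did not pass (limma, adjusted p = 0.16). It was −1.72 within the low-numbered and −1.28 within the high-numbered arrays. Snora44, another small nucleolar RNA, differed by −1.18 ± 0.38 (limma, adjusted p = 0.41), with 8.05 ± 0.44 in old and 9.23 ± 0.97 in young callus (SD, n = 5 each). At day 5 its age difference was −1.46 ± 0.38 (limma, adjusted p = 0.064) and at day 20 it was 0.40 ± 0.38 (limma, adjusted p = 0.65).

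The let-7 microRNA gene Mirlet7c-1 split by numbering series. It had 3.62, 3.58, 3.83, 3.12 and 3.51 in old replicates 1 to 5, against 3.58, 3.68, 4.30, 4.42 and 4.48 in young replicates. The 3 high-numbered young arrays lay above all others. The change was 0.07 within the low-numbered arrays and −0.98 within the high-numbered arrays (limma, adjusted p = 6.1e-05), against −0.56 ± 0.13 over all 10 (limma, adjusted p = 0.13). Its means of 3.53 in old and 4.09 in young callus both lay below 4.21, the level under which genes were treated as dim. The split is therefore one among values near the low end of the arrays. The difference between the series did not pass over all genes (limma, adjusted p = 0.11). In all, 12 genes were at least 2-fold higher (0.0602% of all) and 23 at least 2-fold lower (0.115%) without regard to a test; 3 and 2 of these were among the genes that passed.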
